A study of Mus musculus with 16 samples.

Results

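The genes described here are 8 that sense, modify or export drugs and other foreign compounds in the gut: the receptors Nr1i2 and Nr1i3, the electron donor Por, the conjugating enzymes Sult1b1 and Ugt2b34, and the efflux pumps Abcb1a, Abcg2 and Abcc2. They were taken by symbol from a named list, and all 8 were found among the 24420 features of each of 2 deposited expression tables. The study measured gene expression by RNA sequencing of transcript 3′ ends in the small intestine of mice of strain C57B6. The first table holds enterocytes, which absorb nutrients across the gut lining, isolated from WT mice (4 libraries) and Mfge8 KO mice (5 libraries). The second holds small intestinal tissue from WT mice (4 libraries) and Cd36 KO mice (3 libraries). MFGE8 is an integrin-binding glycoprotein that cells secrete. CD36 sits in the cell membrane and imports fatty acids with long chains. The labels name no treatment, and age, diet, the form of the null alleles and whether each library is a separate animal are not given in the sources used here. P-values therefore measure the spread between libraries, which may be partly technical. Sex-linked transcripts, given with the levels across groups, bear on the make-up of the intestine libraries.

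Foreign compounds that enter an enterocyte meet a chain of proteins. The nuclear receptors PXR (Nr1i2) and CAR (Nr1i3) bind such compounds or respond to them, pair with RXR and raise transcription of cytochrome P450, conjugation and transporter genes. P450 enzymes oxidise the compound with electrons from cytochrome P450 oxidoreductase (Por). Sulfotransferases and UDP-glucuronosyltransferases then attach a sulfate or a glucuronic acid, and ATP-driven pumps in the apical membrane return the product or the drug itself to the gut lumen.

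Of the 8 genes, 4 lie on chromosome 5 of the mouse build mm10 (GENCODE M21 models). Sult1b1 (chr5:87513339-87538195, minus strand) and Ugt2b34 (chr5:86889767-86906937, minus strand) stand in a stretch of 679261 bases that also holds Ugt2b35, Ugt2b36, Ugt2a3 and Sult1d1. These neighbours are named because they were called in enterocytes. The stretch was not searched for other genes. The gap between Sult1b1 and Sult1d1 is 16449 bases. The other positions are Por at chr5:135670033-135735326 (plus strand), Abcb1a at chr5:8660077-8748575 (plus strand), Abcg2 at chr6:58584523-58695676 (plus strand), Abcc2 at chr19:43782192-43840740 (plus strand), Nr1i2 at chr16:38248323-38294824 (minus strand) and Nr1i3 at chr1:171213970-171220701 (plus strand). In the last 500 bases of each gene's longest coding GENCODE transcript, 0 of 470 31-base words of any of the 8 genes recurred in transcripts of another gene. These libraries are read near transcript ends. The GENCODE models of Nr1i3, Abcg2 and Abcc2 end beyond the RefSeq ones, and which end was read was not tested. The last exon of Nr1i3 overlaps Tomm40l on the opposite strand, so that its reads cannot be told apart from those of Tomm40l unless the counting used strand, which is not given in the sources used here.

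Upstream sequence is shown for the neighbours Sult1b1 and Ugt2b34, which had the highest Pearson r of any pair over the 9 enterocyte libraries, and for Abcg2, which differed most between the intestine genotypes. The sequences are RefSeq promoters on GRCm38.p6, read 5′ to 3′ toward the gene, and end at the last base before the GENCODE model. They cover chr5:87538196-87538445 on the minus strand for Sult1b1, chr5:86906938-86907187 on the minus strand for Ugt2b34, and chr6:58584283-58584522 on the plus strand for the first of 3 listed Abcg2 start sites. Capitals mark nuclear receptor half-sites on either strand. The first half-site searched was AGGTCA, the common core of nuclear receptor elements. The other was AGTTCA, the core of elements bound by PXR with its partner. Those on the opposite strand appear as their reverse complement.
Sult1b1: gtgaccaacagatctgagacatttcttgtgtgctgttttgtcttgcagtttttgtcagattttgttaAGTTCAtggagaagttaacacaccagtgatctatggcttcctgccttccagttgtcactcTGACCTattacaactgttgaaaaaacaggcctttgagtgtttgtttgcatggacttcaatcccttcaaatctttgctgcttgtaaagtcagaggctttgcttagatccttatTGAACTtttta
Ugt2b34: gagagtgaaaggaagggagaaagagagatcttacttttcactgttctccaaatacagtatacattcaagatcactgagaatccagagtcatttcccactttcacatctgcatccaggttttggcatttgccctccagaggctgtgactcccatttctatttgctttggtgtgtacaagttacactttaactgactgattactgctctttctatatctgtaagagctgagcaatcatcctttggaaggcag
Abcg2: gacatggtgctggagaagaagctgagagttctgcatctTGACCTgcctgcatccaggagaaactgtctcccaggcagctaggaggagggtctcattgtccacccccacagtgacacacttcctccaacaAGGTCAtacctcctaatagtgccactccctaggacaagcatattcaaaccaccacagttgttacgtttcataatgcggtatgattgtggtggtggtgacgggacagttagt
Sult1b1 has 3 such matches in this window, Abcg2 has AGGTCA on both strands and Ugt2b34 has no match. The window from 250 bases before to 50 bases after each start was searched on both strands at 11 start sites, which cover all 8 genes. Not every listed start is that of the GENCODE model given above. The 250 bases before the start were chr5:8566841-8567090 for Abcb1a, well upstream of its model. For Por they were chr5:135688895-135689144, inside its model. A gene was counted if any of its start sites matched (3 sites for Abcg2, 2 for Sult1b1), while the background is the share of single promoters. The 2 shares are therefore not in the same unit. AGGTCA was found for 3 of the 8 genes (Sult1b1, Abcg2 and Abcc2) and in 16.3% of 32851 promoters of the table. AGTTCA was found for 2 of the 8 (Abcb1a and Sult1b1) and in 14% of promoters. Whole elements were rarer: repeats of AGTTCA with a spacer of 3 bases, and of AGGTCA then AGTTCA with a spacer of 4, were in 0 of the 32851 promoters, and repeats of AGGTCA with a spacer of 1 were in 0.0396% of them and for 0 of the 8 genes. The AHR core GCGTG was found for 3 of the 8 (Por, and Sult1b1 and Abcg2 at start sites other than those shown) and in 32.4% of promoters. The NRF2 core TGACNNNGC was found for 2 of the 8 (Abcb1a and Abcc2) and in 12.4% of promoters. A match of letters is not a measured binding site, and 3′ reads do not tell which start site was used.

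Enterocyte libraries held 1618369 to 2459812 reads and intestine libraries 850297 to 1000694. Levels are normalised reads (each library's reads over its size factor) unless RPM (reads scaled to equal library totals) is named. The targeted genes were low in the nulls: Mfge8 was 7.94 to 23.4 in WT and 1.64 to 7.5 in Mfge8 null enterocytes, and Cd36 was 111 to 116 in WT and 6.48 to 16.0 in Cd36 null intestine. Reads outside a deleted part could persist in such a check. Markers of smooth muscle summed to 2.78 or less in every library labelled as small intestine, and Cnn1 was at 0 in all of them. Libraries of the same genotype differed by a chi-square of 6.26 to 20.2 per degree of freedom in the enterocyte table. In the intestine table this was 0.987 to 1.117, about sampling noise, against 2.14 to 2.28 between genotypes. The intestine libraries were therefore counted as 1 sample per genotype, with library values, counting intervals and no test.

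Enterocytes of Mfge8 null mice kept reads of all 8 genes, and none of the 7 genes that could be tested passed the test against WT. Ugt2b34, Sult1b1, Abcb1a and Abcc2 had lower means in the null libraries and so had Nr1i2 by less, while Abcg2 and Por had higher means. By limma with Benjamini-Hochberg adjustment over 9432 genes, 0 of 7 were called, against a background of 3.21% of all tested genes (303 called). The recovered-read tests, edgeR and DESeq2 on 7 libraries, also called 0, and 1 of the 7, Ugt2b34, had an unadjusted limma p under 0.05, against 15.9% of all genes. The genotypes overlapped in all 7, while 6.42% of all genes had no overlap (3.35% higher and 3.07% lower). The median log2 change of the 7 was -0.30, with 2 positive and 5 negative values. Leaving out WT 1, WT 2, null 3 or null 5 in turn reduced the 303 calls to 140, 173, 185 and 199.

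**Figure D1:**
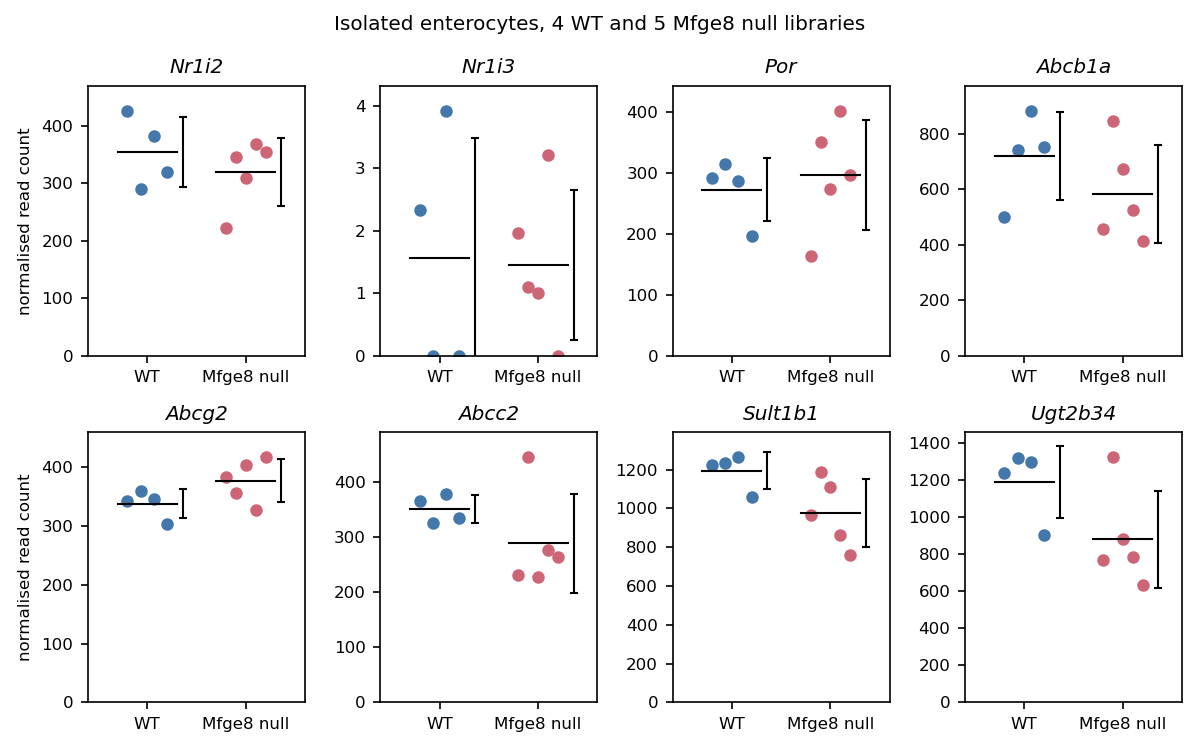
Normalised read counts (vertical axes, each from 0) of the 8 genes in 4 WT and 5 Mfge8 null enterocyte libraries; points are libraries, horizontal lines are means and bars are the SD, which reaches below 0 for Nr1i3. The 2 groups overlap in every panel, and the Abcc2 value of 446 in null 2 stands above the other null libraries.

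Nr1i2, the xenobiotic receptor PXR, had levels of 427, 290.1, 382 and 321 normalised reads in WT libraries 1 to 4. Null libraries 1 to 5 had 222, 346, 309, 368 and 354. Only null 1 lay below the WT range, and the other 4 null libraries lay inside it. The means were 355 ± 61.2 (SD, n = 4) and 320.0 ± 58.9 (SD, n = 5). The log2 change was -0.15 (SE 0.17, 95% interval -0.52 to 0.21, limma adjusted p = 0.728).

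Nr1i3, the related receptor CAR, was at the edge of detection in enterocytes. It had 7 reads over the 4 WT libraries and 7 over the 5 null libraries, with 2 WT libraries and 1 null library at 0. The highest single library held 5 reads. No difference between genotypes was detectable at this depth, no fold is given, and Nr1i3 did not pass the filter on low values.

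Por encodes the flavoprotein that passes electrons from NADPH to microsomal P450 enzymes. Its levels were 291, 315, 287 and 198 in WT and 164, 351, 274, 403 and 296 in null libraries. The null libraries spanned a wider range than WT and reached beyond it at both ends. The log2 change was 0.08 (SE 0.22, 95% interval -0.39 to 0.56, limma adjusted p = 0.903), and its sign turned when WT 4 (-0.062) or null 4 (-0.040) was left out.

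Sult1b1, a cytosolic sulfotransferase that acts on phenols and thyroid hormones, had 1224, 1236, 1265 and 1057 reads in WT. The null libraries had 969, 1189, 1112, 863 and 762. Null 1, 4 and 5 lay below every WT library, and null 2 and 3 lay within the WT range. The means were 1196 ± 93.9 (SD, n = 4) and 979 ± 175 (SD, n = 5), a log2 change of -0.30 (SE 0.15, 95% interval -0.63 to 0.02, limma adjusted p = 0.357).

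Ugt2b34, a microsomal enzyme that attaches glucuronic acid, had 1239, 1320.5, 1297 and 902 reads in WT and 769, 1323, 882, 786 and 633 in null libraries. Null 2 was the highest of the 9 libraries, and the other 4 null libraries lay below every WT library. The means were 1189.9 ± 195 (SD, n = 4) and 879 ± 264 (SD, n = 5). The log2 change was -0.47 (SE 0.19, 95% interval -0.88 to -0.05, limma adjusted p = 0.248). Without null 2 it was -0.63 with a limma adjusted p of 0.0490, past the threshold. With a score of position along the gut as a covariate it was -0.30 (adjusted p = 0.562). That score includes markers that were themselves called between the genotypes.

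Abcb1a encodes P-glycoprotein, the apical pump for many lipophilic drugs. WT libraries had 500.4, 742, 883 and 754 reads, and null libraries had 455, 845, 671, 526 and 413. Null 1 and null 5 lay below every WT library and the other 3 within the WT range. The log2 change was -0.33 (SE 0.21, 95% interval -0.77 to 0.12, limma adjusted p = 0.489), from means of 719.9 ± 159.8 (SD, n = 4) and 582 ± 177 (SD, n = 5).

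Abcg2 encodes BCRP, an apical pump for sulfated conjugates and urate. It had 343, 359.7, 345 and 304 reads in WT and 382, 355, 404, 327 and 417 in null libraries. Of the null libraries, 3 lay above every WT library and 2 within the WT range. The log2 change was 0.15 (SE 0.13, 95% interval -0.13 to 0.44, limma adjusted p = 0.629).

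Abcc2 encodes MRP2, an apical pump for glucuronide and glutathione conjugates. It had 367, 325, 379 and 335 reads in WT and 231, 446, 228, 277 and 264 in null libraries. Null 2 was the highest of all 9 libraries, and the other 4 null libraries were below every WT library. The means were 351 ± 25.5 (SD, n = 4) and 289 ± 90.2 (SD, n = 5). The log2 change was -0.32 (SE 0.18, 95% interval -0.71 to 0.06, limma adjusted p = 0.409), and without null 2 it was -0.49 (adjusted p = 0.0743).

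Null 2 thus held the highest null value for 4 of the 7 tested genes: Abcb1a, Abcc2, Sult1b1 and Ugt2b34. For Nr1i2 and Por the highest null library was null 4, and for Abcg2 it was null 5. Several marker sums differed between the same libraries. All 8 tested markers of T cells and intraepithelial lymphocytes had positive log2 changes, with 0 of 8 called and a sum of 1138 to 3387 in WT and 3150 to 7356 in null libraries. Of the B and plasma cell markers, 1 of 4 tested was called higher, with a sum of 17.5 to 124 in WT and 206 to 501 in null libraries and Cd79a at 0 throughout. Enteroendocrine markers had negative log2 changes for 7 of 7, with 0 called and a sum of 1732 to 2793 in WT and 1232 to 2672 in null libraries. Both tested stem and crypt markers had positive log2 changes, with 0 called, a sum of 18.8 to 33.3 in WT and 33.2 to 75.4 in null libraries, and Olfm4 at 0 throughout. The score of position along the gut, mean log2 level of proximal minus ileal markers (4 tested of each), was 0.761 to 3.98 in WT and -0.931 to 3.09 in null libraries. Of these markers, 1 proximal was called lower and 1 ileal was called higher in the nulls, so the score is not independent of the genotype calls. The part of immune, enteroendocrine and crypt cell content in these results was not tested. In bulk samples, fewer cells of a type and less RNA per cell cannot be told apart.

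Some other enzymes of the same pathways passed the test in these libraries. The list counts here and in intestine include members. These are Ugt2b34 (glucuronidation), Sult1b1 (sulfation), Por (electron donors) and Abcb1a, Abcg2 and Abcc2 (efflux pumps). No list was tested against the members. Of 15 tested P450 genes of drug metabolism, 0 rose and 7 fell, with a list median log2 change of -0.91 against 0.00 over all tested genes. Of 8 tested genes of glucuronidation, 0 rose and 3 fell (median -1.21), and of 6 tested genes of sulfation, 0 rose and 1 fell (median -0.20). Shares called in each direction over all genes were 1.58% higher and 1.63% lower by limma. The P450 count was 1 without WT 1, 3 without WT 3, null 1 or null 5, and 4 without WT 2 or null 4. The glucuronidation count was 1 without WT 1, WT 2 or null 3. With the position score as a covariate both counts were 1, and without limma's trend both were 0.

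Cyp3a11, a P450 of wide substrate range and a known target of PXR, fell from 2372 ± 401 (SD, n = 4) to 751 ± 558 (SD, n = 5), a log2 change of -1.93 (limma adjusted p = 0.00640). Its relative Cyp3a25 fell from 1043 ± 196 to 455 ± 245 (log2 change -1.32, limma adjusted p = 0.0157). Cyp2c29 fell by 2.59 and Cyp2c55 by 1.76 on the log2 scale (limma adjusted p = 0.0479 and 0.0471). Null 2 was the highest null library for all 7 called P450 genes. Up to 15.5% of the terminal 31-base words of Cyp3a25, 10% of those of Cyp3a11 and 7.02% of those of Cyp2c29 recur in relatives, so their reads may be split among copies. Cyp2b10, a known target of CAR, was 660 ± 113 in WT and 469 ± 279 in null libraries and did not pass the test (limma adjusted p = 0.338).

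**Figure D2:**
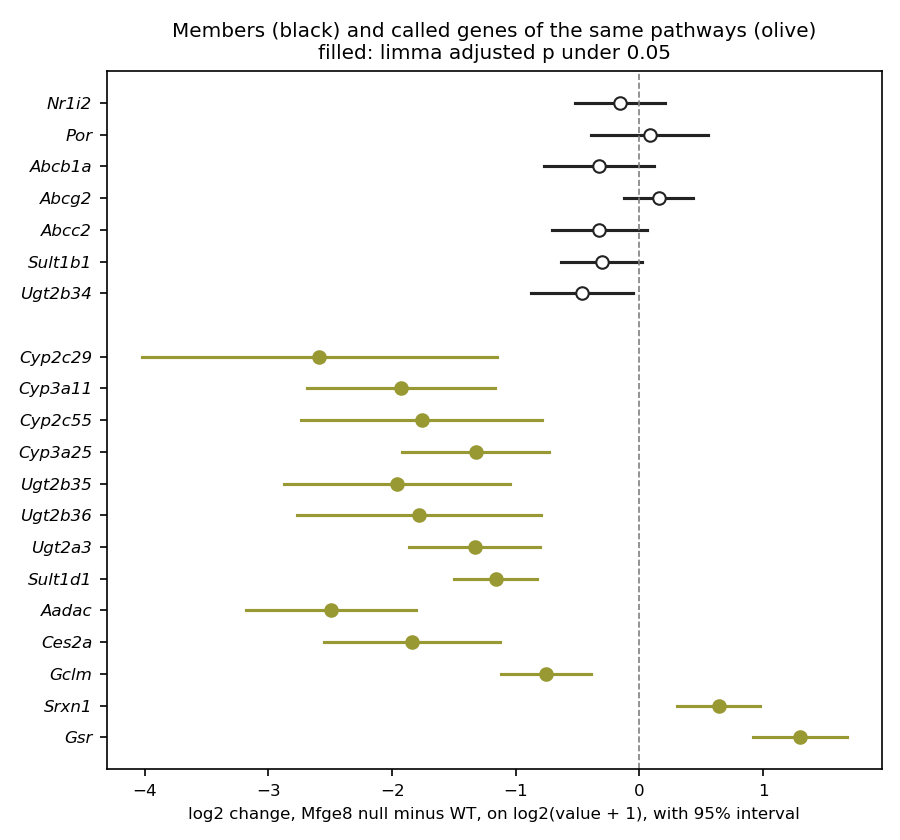
Log2 change of Mfge8 null against WT enterocytes on log2(value + 1) (horizontal axis) with 95% intervals, for the 7 tested genes of the set (black) and called genes of related pathways (olive); filled points passed the limma test after adjustment. The open black points lie between -0.47 and 0.15. The P450 genes shown are the 4 with the largest changes of the 7 called, and their points lie between -2.59 and -1.32. The other called P450 genes, not shown, had smaller changes, from -1.21 to -0.88.

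Some conjugating enzymes in the stretch of chromosome 5 that holds Sult1b1 and Ugt2b34 were among those that fell. Those below were picked because they were called, so they do not describe the stretch as a whole. Sult1d1, a sulfotransferase next to Sult1b1, fell from 924 ± 83.4 (SD, n = 4) to 418 ± 80.6 (SD, n = 5), a log2 change of -1.16 (limma adjusted p = 0.000448), with no overlap of libraries. Ugt2a3 fell from 341 ± 91.6 to 139 ± 57.3 (log2 change -1.33, limma adjusted p = 0.00643). Ugt2b35 fell by 1.96 and Ugt2b36 by 1.78 on the log2 scale (limma adjusted p = 0.0190 and 0.0469). The difference between these changes and those of Sult1b1 and Ugt2b34 was not tested.

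Among the other lists, 0 of 15 receptor partners and sensors, 0 of 5 electron donors, 0 of 6 efflux pumps and 0 of 8 uptake carriers passed the test in enterocytes. The median log2 changes of these lists were -0.08, -0.36, -0.30 and 0.10. Por is counted among the electron donors, and Abcb1a, Abcg2 and Abcc2 among the efflux pumps, so those counts partly repeat the member results. Rxra, the partner of both receptors, had a log2 change of -0.16 (limma adjusted p = 0.631). Of 9 other conjugation and hydrolysis enzymes, 2 fell and 0 rose. These were the arylacetamide deacetylase Aadac (log2 change -2.49, limma adjusted p = 0.000304) and the carboxylesterase Ces2a (log2 change -1.84, limma adjusted p = 0.00541). Of 9 NRF2 and AHR target genes, 2 rose and 1 fell. Glutathione reductase (Gsr) rose by 1.30 and sulfiredoxin (Srxn1) by 0.64 on the log2 scale (limma adjusted p = 0.000505 and 0.0363), while Gclm, a subunit of the enzyme that starts glutathione synthesis, fell by 0.75 (adjusted p = 0.0229). That count of 3 was 1 without WT 1, WT 2, WT 3 or null 4, with the position score, or without limma's trend.

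**Figure D3:**
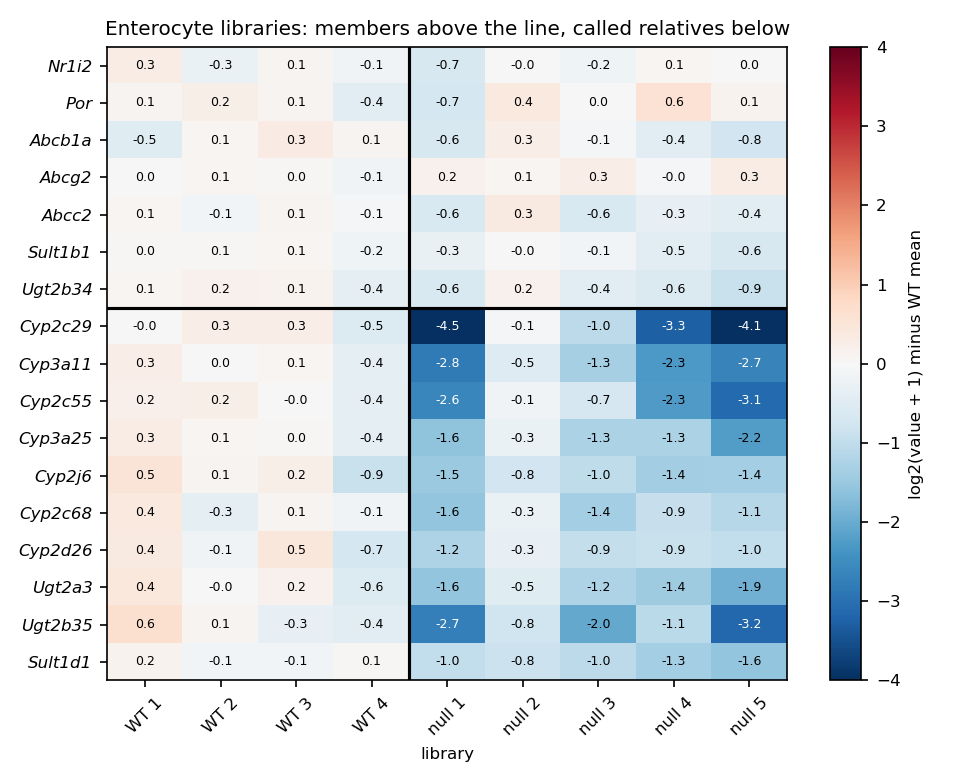
Log2(value + 1) minus the WT mean (colour and printed value) in each enterocyte library (columns) for the 7 tested genes of the set (rows above the line) and called genes of the same pathways (rows below). In the upper rows values are within 1 log2 unit of the WT mean in every library, while Cyp3a11 is far below it in null 1, 4 and 5 and least so in null 2.

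After the genotype means were removed, the 9 enterocyte libraries still varied together for some of the genes. Over all 9 libraries Sult1b1 and Ugt2b34 had the highest values (Pearson r 0.89, Spearman rho 0.87), and r was 0.76 without the 2 farthest libraries. Here and below, the 2 farthest are those farthest from the median of the first-named gene, or of the position score. They therefore differ between pairs, and extremes of the second gene may remain. Nr1i2 and Por had r 0.74 (rho 0.58, and r 0.80 without the 2 farthest). Abcc2 and Ugt2b34 had r 0.71 (rho 0.45), which fell to 0.38 without the 2 farthest. Abcb1a and Sult1b1 had r 0.67 (rho 0.68, and r 0.71 without the 2 farthest). Abcc2 and Nr1i2 went from r 0.49 to 0.83 without the 2 farthest, so r depended on which libraries were used. Since the libraries left out differ, the reduced values do not rank the pairs. Abcg2 had r from -0.35 to 0.07 with the other 6 genes. Without the 2 libraries farthest out for Abcg2 itself, its r was -0.80 with Ugt2b34 and -0.69 with Sult1b1. The position score had r 0.55 with Ugt2b34 and 0.50 with Por, and 0.65 and 0.49 without the 2 farthest libraries. With Abcg2 its r was -0.48, and the sign turned (0.12) without them. These values describe 9 libraries that share a table and size factors, and they carry no test.

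The tested genes whose residuals were most like each member over the same 9 libraries were picked from 9432, so high values arise by selection. They were Rdh5, Zdhhc9 and Cyp3a13 for Por (Pearson r 0.98, 0.95 and 0.95), Dusp9, Rad1 and Sec24c for Nr1i2 (0.97, 0.95 and 0.94), and Klf11, 1500009L16Rik and Acp2 for Abcg2 (0.98, 0.96 and 0.96). For Abcb1a they were Nelfb, Pcdh19 and Rnf141 (0.97, 0.96 and 0.94), and for Abcc2 they were Tanc1, Ccdc32 and Zbtb22 (0.95, 0.95 and 0.94). For Sult1b1 they were Cisd2, Akr1e1 and Tmem252 (0.97, 0.95 and 0.95), and for Ugt2b34 they were Erp44, Slc4a2 and Bst1 (0.97, 0.96 and 0.96). Cyp3a13 is a P450 that takes electrons from Por. Its level was 2342 ± 404 (SD, n = 4) in WT and 2247 ± 625 (SD, n = 5) in null libraries.

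In small intestine of Cd36 null mice, all 8 genes were measured and differed little from WT. Abcg2 was lower and Abcc2 higher in the null libraries, Por and Abcb1a were slightly lower, and Nr1i2, Nr1i3, Sult1b1 and Ugt2b34 overlapped. None of the 8 passed the rule of a 1.5-fold difference with no overlap of libraries, which 5.67% of 9314 genes passed. The libraries did not overlap for 4 of the 8, with 3 lower and 1 higher, against 16.5% of all genes (7.91% lower and 8.61% higher). These 4 genes lie at percentiles 91.4 to 99.1 of the tested means, where counting noise is relatively small. The share among genes of like level was not taken. The median log2 ratio of the 8 was -0.01, with 4 positive and 4 negative. With 1 sample per genotype there is no test, and the intervals below are exact binomial 95% intervals for counting error only.

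**Figure D4:**
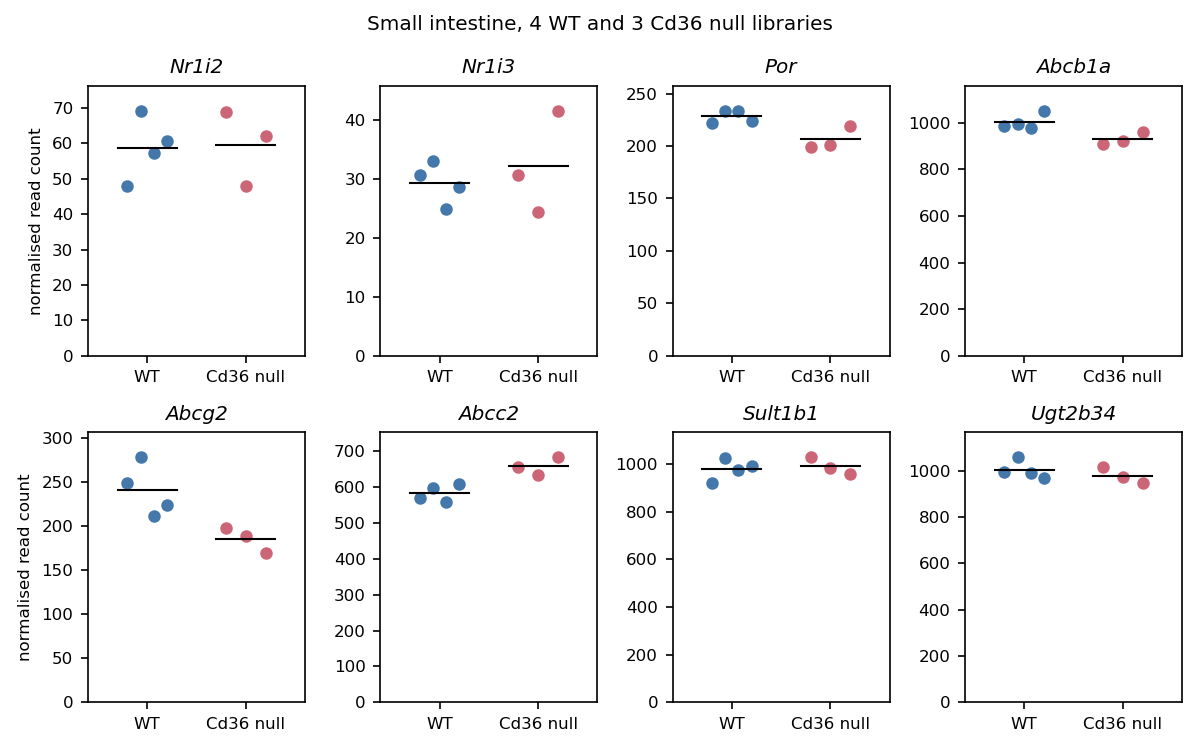
Normalised read counts (vertical axes, each from 0) of the 8 genes in small intestine, 4 WT and 3 Cd36 null libraries; points are libraries and lines are their means. The Abcg2 points of the null libraries all lie below the WT points, and the Abcc2 points all lie above them.

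The receptors did not separate the intestine genotypes. Nr1i2 had 48.0, 69.2, 57.2 and 60.5 normalised reads in WT and 68.8, 47.9 and 62.0 in null libraries, a ratio of 1.03 (0.843 to 1.25). Nr1i3 had 30.7, 33.0, 24.9 and 28.7 in WT and 30.8, 24.5 and 41.6 in null libraries, a ratio of 1.11 (0.843 to 1.46) on 116 and 102 reads. The libraries of both genotypes were intermixed for the 2 receptors, and the intervals allow differences of up to 1.25 and 1.46 times. Por had 222, 233, 234 and 224 in WT and 199, 201 and 219 in null libraries. Every null value of Por was below every WT value, with a ratio of 0.906 whose counting interval (0.818 to 1.004) reached 1.

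The conjugating enzymes overlapped. Sult1b1 had 920.1, 1025, 974 and 991 in WT and 1029.7, 984 and 960.2 in null libraries (ratio 1.02, 0.969 to 1.07). Ugt2b34 had 995, 1058, 989 and 969.7 in WT and 1014, 970.2 and 945 in null libraries (ratio 0.974, 0.929 to 1.02). Neither gene had an order of genotypes among its 7 libraries, and the intervals reached no lower than 0.929 and no higher than 1.07.

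All 3 efflux pumps, like Por, had library values that did not overlap between the intestine genotypes. Abcg2 had 249.7, 279, 212 and 225 in WT and 198, 189.6 and 169 in null libraries, with no overlap. Its ratio was 0.769 (0.692 to 0.853), a log2 ratio of -0.38. Abcc2 went the other way, with 568, 596, 558 and 609 in WT and 654, 633 and 683 in null libraries, a ratio of 1.13 (1.06 to 1.20) and a log2 ratio of 0.17. Abcb1a had 985, 995, 979.9 and 1053 in WT and 910.2, 921 and 961 in null libraries, so that null values again lay below WT, with a ratio of 0.928 (0.885 to 0.974). Tests that treat libraries as replicates compare these libraries and not the genotypes: limma called Abcg2 (adjusted p = 0.000956) and Abcc2 (adjusted p = 0.0175), as did edgeR, and neither called Por or Abcb1a.

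Other features of the same intestine libraries separated the genotypes too. The position score was 0.945 to 1.08 in WT and 1.17 to 1.45 in null libraries. The 5 ileal markers summed to 983 to 1046 in WT and 689 to 748 in null libraries. They did not move as 1 group: log2 ratios were negative for 4 and positive for 1, with 1 past the fold in each direction. T cell and intraepithelial lymphocyte markers summed to 663 to 849 in WT and 571 to 597 in null libraries, with negative log2 ratios for 8 of 8. Goblet cell markers summed to 7358 to 7652 and 8734 to 8925, with positive log2 ratios for 6 of 6. Enteroendocrine markers summed to 299 to 329 in WT and 415 to 422 in null libraries (7 of 7 positive), and tuft cell markers to 48.0 to 50.3 and 93.4 to 114 (2 of 2 tested past the fold). Stem and crypt markers summed to 266 to 305 in WT and 194 to 197 in null libraries (4 of 4 tested negative). Xist, transcribed from the inactive X of females, was 441 to 498 in WT and 319 to 360.0 in null libraries. The part of these in the Abcg2 and Abcc2 differences was not tested.

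Of the pathway lists in intestine, 1 of 14 P450 genes and 1 of 9 efflux pumps passed the fold rule, beside background shares of 3.15% lower and 2.52% higher. The P450 was Cyp1a1, an AHR target counted also among the NRF2 and AHR targets (1 of 8), with 17.3 in WT and 6.70 in null libraries and a counting interval of the ratio of 0.227 to 0.644. The pump was Abcb1b, a P-glycoprotein gene beside Abcb1a, with 4.63 in WT and 13.3 in null libraries (interval 1.62 to 5.32). Of the terminal 31-base words of Abcb1b, 10.6% recur in other genes, chiefly Abcb1a and Abcb4. Among receptor partners (14), electron donors (5), glucuronidation (8), sulfation (6), uptake carriers (8) and other conjugation enzymes (8), 0 genes passed. Cyp3a11 was 235 in WT and 208 in null libraries, and Sult1d1 was 524 and 489, with overlap in both.

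Levels across the 4 groups were compared in RPM, as a description, since the tables were normalised separately. The tables also differed in sex-linked transcripts. These are given in normalised reads, whose scale differs between the tables, so they show presence and not relative level. Xist was at 0 in every enterocyte library, where the Y-linked Ddx3y was 46.9 to 109. Every intestine library held both, with Xist at 319 to 498 and Ddx3y at 40.02 to 48.1. Each intestine library thus held transcripts of both sexes, which RNA of a single animal would not show. The part of sex in the differences between tissues was not tested. Nr1i2 was higher in enterocytes (means of 192 in WT and 162 in Mfge8 null) than in intestine (66.1 in WT and 65.7 in Cd36 null), and the ranges of the 2 tissues did not overlap. Nr1i3 had the reverse order, with 0.817 and 0.740 in enterocytes and 33.1 and 35.6 in intestine. Its antisense neighbour Tomm40l was present in both, at 51.6 and 44.2 normalised reads in enterocytes and 12.5 and 14.3 in intestine. These values are not in RPM and do not compare the Tomm40l level between tissues. Which of the genes the Nr1i3 reads came from was not tested.

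The remaining members had higher means in intestine. Abcc2 was 190.2 in WT and 147 in Mfge8 null enterocytes against 656 in WT and 724 in Cd36 null intestine. Abcb1a was 391 and 296 against 1131 and 1027, with no overlap between tissues for either pump. Por was 147 and 150.02 against 257 and 228. Sult1b1 was 647 and 499 against 1101 and 1094, and Ugt2b34 was 643 and 447 against 1130.2 and 1078, again with separate ranges for the tissues. Abcg2 differed least, at 183 and 192 in enterocytes and 272 and 205 in intestine, and its Cd36 null range overlapped those of both enterocyte groups. Within enterocytes the genotype ranges overlapped for every member except Sult1b1, whose WT range of 606 to 679 lay just above a null range of 383 to 606 RPM while the normalised values overlapped.

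**Figure D5:**
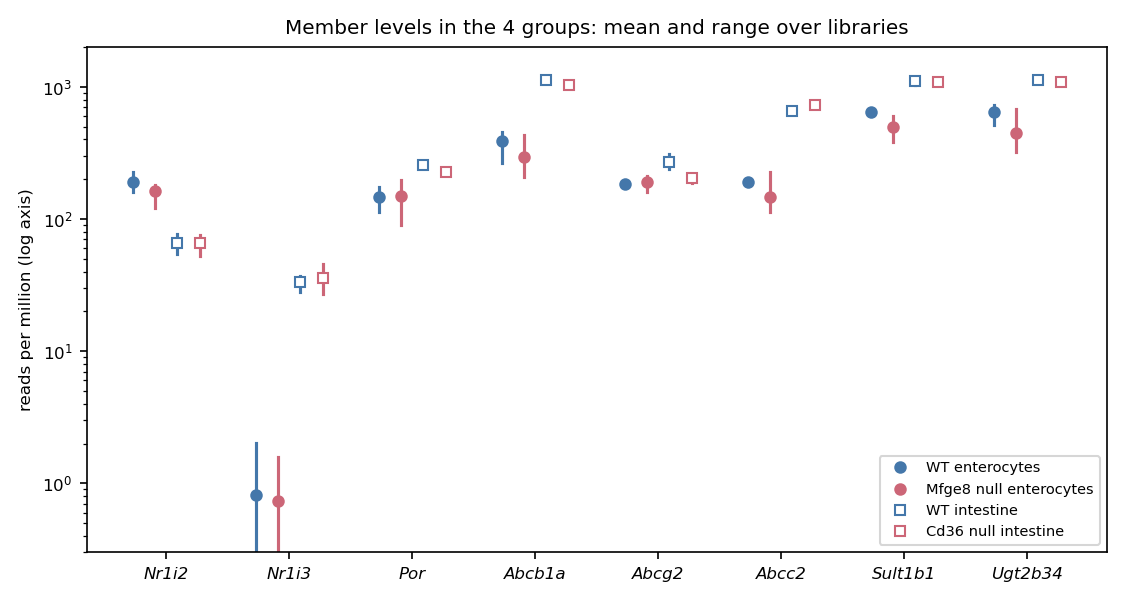
RPM (log axis) for the 8 genes in the 4 groups; symbols are means and lines run from the lowest to the highest library, with libraries at 0 drawn to the lower edge. Nr1i2 is higher in the enterocyte groups, Nr1i3 is near 1 RPM there and above 30 in intestine, and the other genes are at similar or higher levels in intestine.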

How the data were processed

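Transcript 3′ ends were sequenced with a forward kit and a molecular identifier module, per the labels' protocols. The submitters' processing notes list HISAT2 2.1.0 and the build mm10, Trimmomatic 0.38.1, DESeq2 2.11.40, and HTSeq 0.91. Their order, settings, strand mode and use of identifiers are not given in the sources used here, so intervals cover counting error only. The values deposited by the authors are a normalised signal, with 1 table per experiment.

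Within each library 100% of values were whole multiples of a common step (tolerance 1e-06), which gave whole reads. For WT 4 and null 3 of the enterocyte table the step is uncertain because the size factor is nearly 1, and count tests left them out. Tested genes reached a value of 5 in no fewer than 4 (enterocytes) or 3 (intestine) libraries. Enterocytes were tested with limma 3.58.1 (R 4.3.3) with a trend on log2(value + 1), 2-sided, Benjamini-Hochberg adjustment and a threshold of 0.05. Such log2 changes understate changes of low genes. The count tests edgeR 4.0.16 and DESeq2 1.42.0 called 258 and 398 genes in enterocytes, against 303 by limma, and edgeR called 755 between the intestine libraries. Intestine genes were called at a 1.5-fold ratio with no overlap of libraries. The procedures were tested on simulated data.

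Named genes are the 8 members, up to 4 called genes per pathway list in enterocytes and up to 3 in intestine by size of change, the 3 genes most correlated with each member, and the targeted genes; Rxra, Cyp2b10, Cyp3a11 in intestine, Sult1d1 in intestine and Tomm40l were chosen after their values were seen. The 8 members and all lists were chosen with earlier results of these data known. Proteins and a genome sequence were not used here.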

Additional observations from a re-analysis of the deposited data

Results flagged for a closer look

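Abcc2 in the Mfge8 null enterocyte library 2 stood far above the other libraries of its group. It was 446 normalised reads, against 228 to 277 in the other 4 null libraries and 325 to 379 in WT. The gap passed Dixon's 95% critical value for 5 libraries. It was the only such case among 24 examined (8 genes in the 3 groups of 4 or 5 libraries), and chance flags about 1 in 20.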

How the results depend on the processing

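Over the alternatives, 0 of the 7 tested members were called in enterocytes except without null 2, which called Ugt2b34 (range on leaving out each library 0 to 1). Por turned sign without WT 4 (-0.062), without null 4 (-0.040) and without both libraries of uncertain step (-0.048), with -0.062 to 0.28 on leaving out each library; the other 6 members kept their sign in 20 alternatives each. The count of genes called, 303, was 147 without limma's trend and 154 with the position score, and 140 to 388 on leaving out each library. P450 calls (7) were 0 without the trend, 1 with the position score and 3 by edgeR, with 1 to 8 on leaving out each library. Glucuronidation calls (3) were 0 without the trend and 1 with the position score (1 to 4). NRF2 and AHR target calls (3) were 1 without the trend and 1 with the position score (1 to 3). The cause of these shifts was not tested. In intestine, 528 genes past the fold became 238 at a minimum value of 20 (fewer genes tested) and 191 at a fold of 2, with 591 to 770 on leaving out each library; members past that rule were 0 to 0 on leaving out each library. By adjusted p across libraries, another criterion, limma called 2 members, limma with the replicate block 2 and edgeR 2. Replicate numbers did not pair the samples: correlations of same-numbered deviations were -0.12, -0.07, 0.21 and 0.09 in enterocytes and -0.01, 0.00 and 0.00 in intestine. With the replicate block 229 genes, 0 members and 1 glucuronidation gene were called in enterocytes, and 643 genes in intestine. Nr1i3 had 7 reads per genotype in enterocytes, too few to compare the genotypes.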

Other observations

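Ratios between neighbours and partners in the same enterocyte library were also recorded, chosen after their values were seen and given with no test. Sult1d1 over Sult1b1 was 0.673 to 0.908 in WT and 0.402 to 0.475 in Mfge8 null libraries. Ugt2a3 over Ugt2b34 was 0.247 to 0.358 in WT and 0.137 to 0.178 in null libraries. Cyp3a11 over Nr1i2, its receptor gene, was 5.73 to 8.23 in WT and 1.03 to 4.77 in null libraries. Cyp3a11 over Por was 7.58 to 9.65 in WT and 1.18 to 4.71 in null libraries. In each of these ratios the genotypes did not overlap. Every numerator had been called lower in the nulls and no denominator had been called, so separate ranges follow largely from this choice. Null 2 had the highest null value for each ratio except Sult1d1 over Sult1b1. Cyp1a1 was 286 in null 2 and 13.1 to 99.6 in the other null libraries, against 2.34 to 30.8 in WT (limma adjusted p = 0.205).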
